A study of Caenorhabditis elegans with 8 samples.

Results

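The 86 genes described here are the Hedgehog-related and Patched-related genes of Caenorhabditis elegans. They were taken by name from the 46739 genes of the deposited table: every numbered wrt, grd, grl, hog, ptr, ptc or ptd gene, with 1 name left out of the rule. The secreted set holds 60 genes (10 wrt, 17 grd, 32 grl and hog-1) and the membrane set 26 genes (22 ptr, 3 ptc and ptd-2). Of the 86, 62 had enough counts to be tested, 38 in the secreted and 24 in the membrane set, among 14772 genes tested in all. RNA came from whole hermaphrodites of the wild-type strain N2. Synchronized worms were put on RNA interference (RNAi, feeding of double-stranded RNA that matches a gene) as young adults and were collected on day 5 of adulthood. The control group, with 2 libraries numbered 1 and 3, received the empty vector L4440. The A-labelled group (3 libraries) received RNAi against vab-3a and the C-labelled group (3 libraries) RNAi against vab-3c, named for isoforms of vab-3, which is the Pax6 gene of the worm and encodes a transcription factor. Whether replicates were separate cultures is not in the labels; p-values therefore cover the spread of these samples alone, and that spread may be technical.

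Nematodes have no typical Hedgehog protein and no Smoothened, but carry a large set of secreted proteins related to Hedgehog and a large set of membrane proteins related to its receptor Patched. The secreted families are named for their amino-terminal domains: Warthog (wrt), Groundhog (grd), Ground-like (grl) and Hog; some members also carry the self-cleaving Hint domain found at the carboxyl end of Hedgehog. Patched and its relatives cross the membrane many times and hold a sterol-sensing domain. In worms both sets are known above all from epidermis, glia and other epithelia that line a surface with extracellular matrix, and many of the genes are switched on and off with the larval moults. In whole worms, fewer cells of a type and less RNA per cell cannot be told apart, in this and in every result that follows.

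Total counts per library ran from 30289733 to 43364047. The targeted gene was measured first, as counts relative to the scaled library total (CPM), over the whole gene and not by isoform; counts also cannot tell the worm's own transcript from any reads of the fed double-stranded RNA. Control libraries 1 and 3 held 2.23 and 2.12 CPM of vab-3, A-labelled libraries 1, 2 and 3 held 4.43, 5.52 and 4.38 CPM, and C-labelled libraries 1, 2 and 3 held 4.08, 2.04 and 4.84 CPM. All 3 A-labelled libraries and 2 of the C-labelled libraries thus lay above both controls; the counts show no lower vab-3 level in either RNAi group, and groups are therefore named by their labels. The log2 difference from control was 1.13 ± 0.34 (SE, n = 3 against 2; edgeR quasi-likelihood test, Benjamini-Hochberg adjusted p = 0.121) for the A-labelled and 0.74 ± 0.33 (adjusted p = 0.700) for the C-labelled libraries. A-labelled libraries 2 and 3 stood apart from the other 6 in most of what follows, so the main results are given by library.

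The sets differ in build. By the reference annotation (WBcel235), the 58 secreted members annotated as protein-coding encode 102 to 1137 residues (median 265.5) with a median of 5 exons, and the 25 coding membrane members 820 to 1408 residues (median 905) with a median of 13 exons. The annotation lists ptc-2, grd-17 and grl-32 as pseudogenes. Chromosome V carries 30 of the 60 secreted genes, 50%, against 24.99% of all protein-coding genes, while 9 of the 26 membrane genes lie on chromosome II. Some secreted members are direct neighbours: wrt-1 (chromosome II, 7530996 to 7533246, forward strand) ends 15 bases from the end of wrt-10 (7533262 to 7534563, reverse strand), and grd-13, grd-3 and grd-10 lie in a row on chromosome IV with gaps of 147 and 601 bases. The library kit does not mark strand, so reads where genes overlap cannot be told apart. This concerns 26 of the 86 members and 16 of the 62 tested ones, for which a coding gene overlaps by a median of 29.5 bases; ptr-18 overlaps Y38F1A.4 by 2907 bases, a gene with 46 counts over all libraries against 1079 for ptr-18.

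Every member had at least 1 count, but levels spanned several orders of magnitude. Levels between genes were compared per length, by the deposited RPKM values, which are corrected for gene length and library total, as means ± SD over all 8 libraries. The highest belonged to the membrane set. ptc-1, the Patched gene known for its part in the division of germ cells, stood at 208 ± 12.4 RPKM, ptr-2, known for a part in the permeability barrier of the embryo, at 146 ± 8.38 RPKM, and ptc-2 at 39.96 ± 2.07 RPKM. The library ranges of ptc-1 and ptr-2 did not overlap each other or that of ptc-2. From ptc-2 downward, each member's range overlapped the next in the order: the Groundhog genes grd-5 at 34.7 ± 11.7 and grd-3 at 15.4 ± 7.21 RPKM, then ptr-21 at 13.8 ± 1.53, the Ground-like gene grl-4 at 13.5 ± 4.53 and the Warthog gene wrt-5 at 10.8 ± 0.604 RPKM. These 8 genes were the only members above 10 RPKM, and 40 of 86 exceeded 1 RPKM. The median member had 0.366 RPKM in the secreted and 1.87 RPKM in the membrane set.

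**Figure D1:**
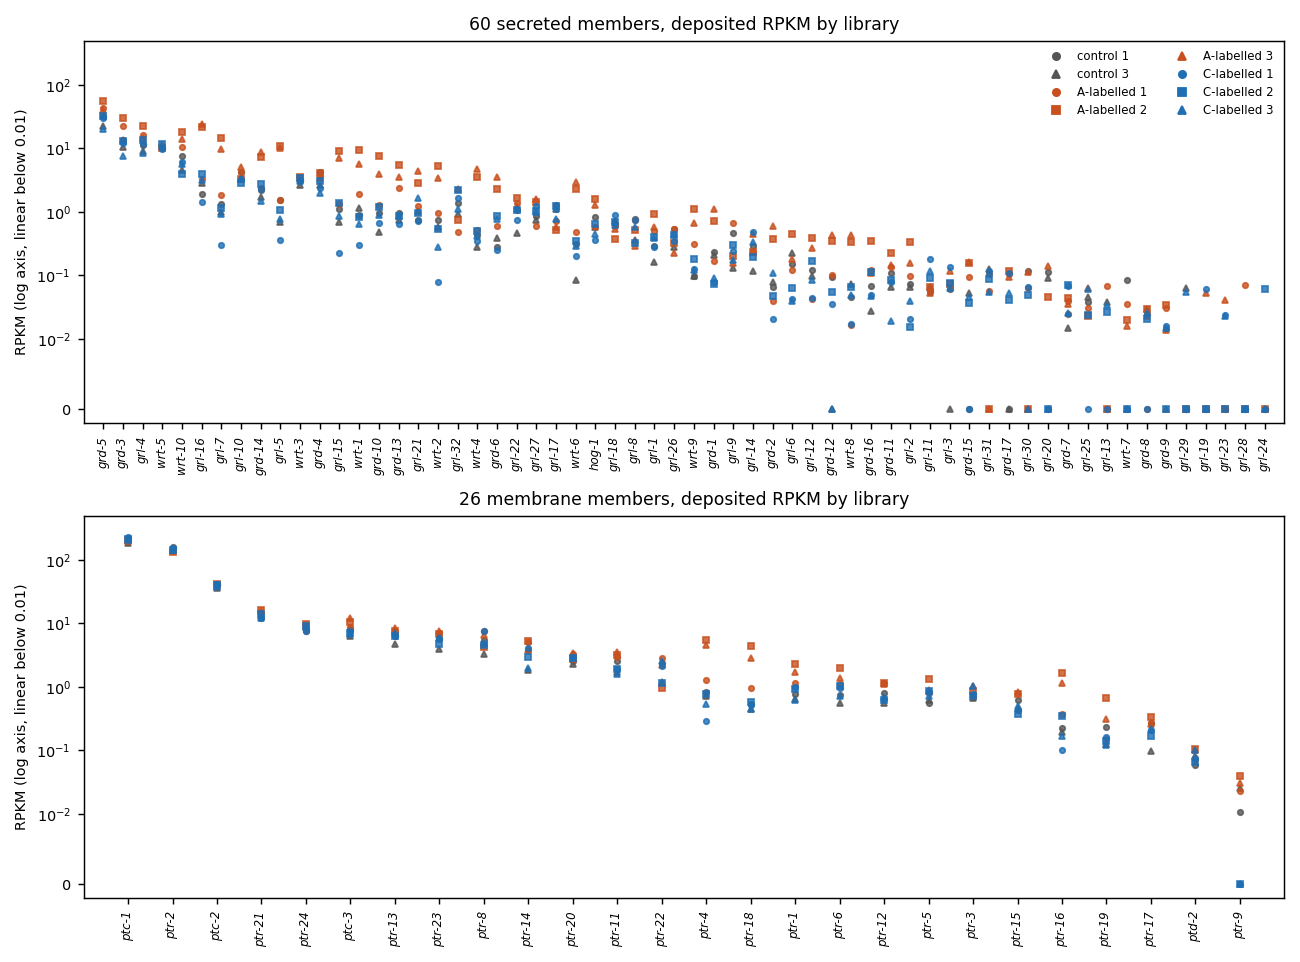
Deposited RPKM of all 86 members in each of the 8 libraries (symbols, log axis that is linear below 0.01), ordered by mean level within the 60 secreted and 26 membrane members. ptc-1 and ptr-2 lie above 100 RPKM in every library, while the A-labelled libraries 2 and 3 stand above the rest at many secreted members of middle level.

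A few genes made up most of the membrane counts. ptc-1 supplied 59.2%, ptr-2 23.9% and ptc-2 4.51% of them, whereas the leading secreted genes, grd-5, grl-16 and grl-4, supplied 15.4, 11.1 and 9.45% of the secreted counts. The 24 members not tested had between 1 and 65 counts over the 8 libraries together, and 10 of them had fewer than 10. Among them were ptd-2, the only member of its family here, at 0.161 to 0.311 CPM in all libraries, and 15 of the 32 Ground-like genes.

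The comparison of A-labelled with control libraries asks how the families stood after the RNAi named for isoform A. Most tested members of both sets were higher in the A-labelled group, and the secreted set by more. The log2 difference was above 0 for 33 of 38 secreted and 23 of 24 membrane members, beside 54.5% of all genes tested. Its median was 1.40 in the secreted set and 0.58 in the membrane set, against 0.03 over all genes tested. The secreted median was 0.87 without A-labelled library 2, and the membrane median 0.35 without control library 3. 20 secreted and 6 membrane members were more than 2-fold higher, beside 8.92% of all genes, and none was more than 2-fold lower. After adjustment over all genes, edgeR called 0 members and 0% of genes. At an unadjusted p below 0.05 there were 21 secreted members higher and 1 lower and 13 membrane members higher, beside 13.7% of all genes higher and 12.3% lower. DESeq2, run as an alternative, called 16 secreted and 8 membrane members, all higher, beside 4.88% of genes higher and 1.97% lower. Members of low level passed the filter through the libraries in which they were high, so these counts describe the tested members only.

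Warthog genes showed the widest differences, with a median log2 difference of 2.32 and 7 of 9 tested genes more than 2-fold higher. Of these 7, wrt-8 (65 counts in all, named after its values were seen) and wrt-9 (155 counts) passed the filter through A-labelled libraries. Their place in the count thus follows in part from the filter. In CPM, in the order control 1 and 3, then A-labelled 1, 2 and 3, then C-labelled 1, 2 and 3 (the order kept below), wrt-6 stood at 0.590 and 0.166, at 0.921, 4.66 and 5.64, and at 0.388, 0.703 and 0.576. wrt-4 stood at 0.805 and 0.531, at 0.978, 7.01 and 8.78, and at 0.656, 0.961 and 0.778 CPM. wrt-9 stood at 0.161 and 0.166, at 0.518, 1.93 and 1.11, and at 0.209, 0.305 and 0.202 CPM. In all 3 genes the A-labelled group lay wholly above both other groups, with library 1 the lowest of its group and libraries 2 and 3 well above it. The log2 differences from control were 3.25 ± 0.86 for wrt-6, 3.04 ± 0.89 for wrt-4 and 2.82 ± 0.61 for wrt-9 (edgeR adjusted p = 0.121, 0.122 and 0.121). The abundant wrt-10 held 7.84 and 4.88, then 10.8, 20.2 and 14.6, then 6.32, 4.22 and 5.82 CPM. Here too the A-labelled libraries did not overlap the others, by a smaller log2 difference of 1.25 ± 0.32 (adjusted p = 0.121). Its neighbour wrt-1, chosen after its values were seen, held 1.40 and 1.86, then 3.02, 15.9 and 8.80, then 0.477, 1.34 and 1.01 CPM, a log2 difference of 2.51 ± 0.73 from control (adjusted p = 0.122). The most abundant Warthog gene did otherwise: wrt-5 held 8.43 and 9.26, then 8.11, 8.63 and 8.75, then 7.84, 9.51 and 8.58 CPM, with all groups overlapping and a log2 difference of -0.06 ± 0.13 (adjusted p = 0.812).

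All 11 tested Groundhog genes had a higher mean in the A-labelled group, with a median log2 difference of 1.68 and 7 of them more than 2-fold higher. These counts follow in part from the filter. grd-12 (32 counts in all) and grd-2 (138 counts) passed it through A-labelled libraries 2 and 3, in which they were high. Both are named after their values were seen. grd-13 had the smallest unadjusted p of the secreted set and stood at 0.564 and 0.465, then 1.41, 3.45 and 2.14, then 0.388, 0.539 and 0.518 CPM. Each A-labelled library exceeded every other library, and the log2 difference from control was 2.16 ± 0.41 (unadjusted p = 0.000608, adjusted p = 0.121). The highest Groundhog gene, grd-5, stood at 16.9 and 11.8, then 22.1, 30.9 and 20.6, then 15.4, 17.6 and 10.5 CPM. Its groups did not overlap either, at a log2 difference of 0.77 ± 0.27 (adjusted p = 0.143). grd-3 stood at 9.12 and 7.50, then 15.5, 21.6 and 9.29, then 8.26, 9.30 and 5.30 CPM, so that A-labelled library 3 lay only just above the controls (log2 0.89 ± 0.37, adjusted p = 0.182).

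The Ground-like genes, the largest family, were the most mixed: 13 of 17 tested genes had a higher mean, 6 of them by more than 2-fold, and the median log2 difference was 0.59. grl-16 held 3.19 and 4.78, then 5.47, 38.5 and 39.5, then 2.35, 6.63 and 5.36 CPM. grl-7 held 1.56 and 1.23, then 2.22, 18.2 and 11.8, then 0.358, 1.41 and 1.12 CPM. In both, A-labelled libraries 2 and 3 were far above all others, and library 1 was above the controls by less. The log2 differences were 2.81 ± 0.93 for grl-16 (adjusted p = 0.142) and 2.93 ± 0.95 for grl-7 (adjusted p = 0.136). grl-4, the highest Ground-like gene per length, held 9.18 and 7.74, then 13.1, 19.6 and 11.7, then 9.66, 11.4 and 7.03 CPM, with the A-labelled group above the rest at a log2 difference of 0.81 ± 0.27 (adjusted p = 0.132). The opposite order was seen for grl-17, at 1.64 and 1.43, then 0.921, 0.690 and 0.747, then 1.40, 1.62 and 0.979 CPM. Its A-labelled libraries lay below all others, at a log2 difference of -0.96 ± 0.28 (adjusted p = 0.121). grl-17 overlaps C56A3.8 by 21 bases, with 335 counts against 5832, so its reads are uncertain. grl-18, known from the glia that form sensory pores, was the other tested secreted gene whose A-labelled libraries lay wholly below control, at 0.859 and 0.963 CPM in control and 0.777, 0.518 and 0.721 CPM in the A-labelled libraries (log2 -0.43 ± 0.29, adjusted p = 0.372). grl-26, at 78 counts in all, overlapped in every comparison with a log2 difference of -0.19 ± 0.50. hog-1, the only Hog gene, held 0.698 and 0.498 CPM in control and 0.489, 1.41 and 1.08 CPM in the A-labelled libraries, with overlapping groups (log2 0.72 ± 0.48, adjusted p = 0.365). It overlaps atat-2 by 19 bases, with 188 counts against 396, so its reads are uncertain too.

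**Figure D2:**
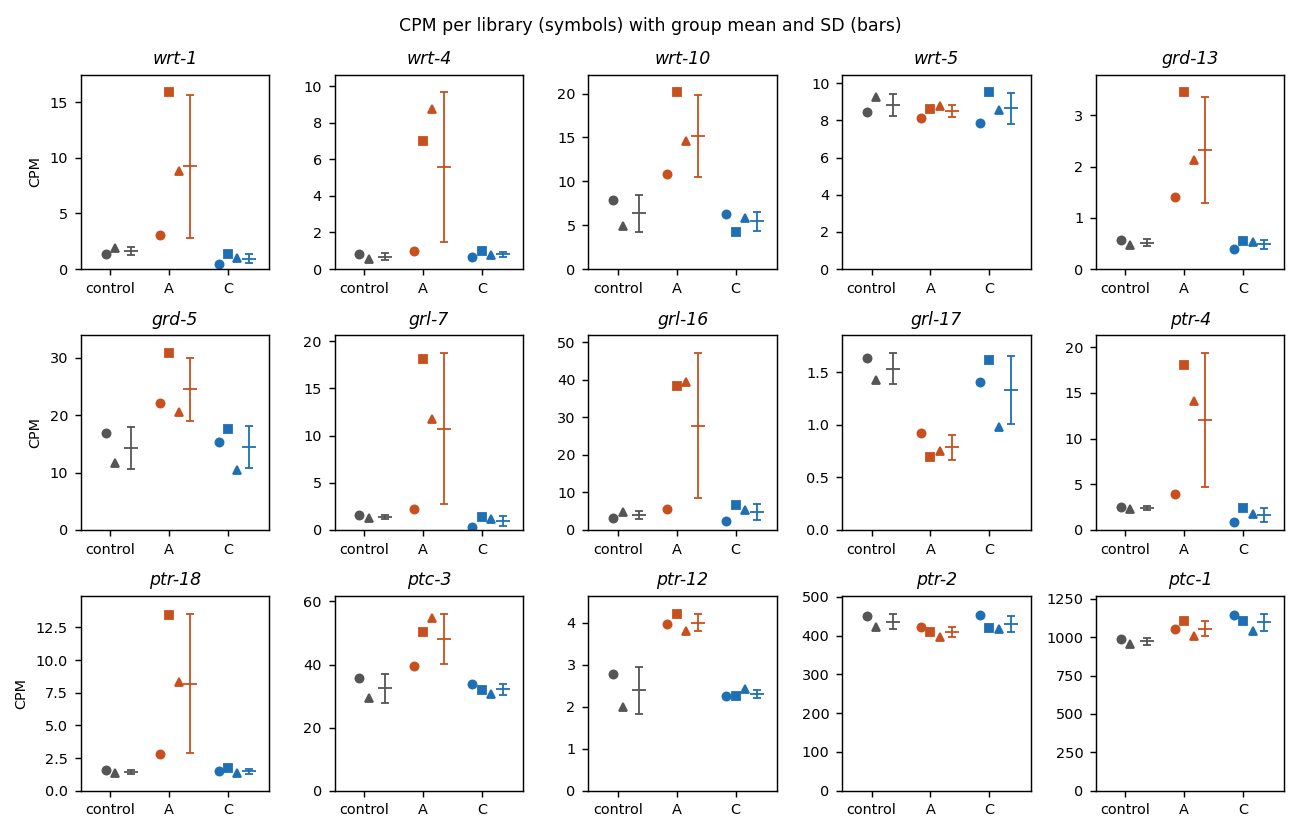
CPM of 15 members in each library (circle, library 1; square, library 2; triangle, library 3), with the group mean and SD as bars, each panel on its own axis from 0. A-labelled libraries 2 and 3 lie far above the rest in wrt-1, wrt-4, grl-7, grl-16, ptr-4 and ptr-18, while all 3 A-labelled libraries lie close together in ptr-12 and grl-17, and wrt-5, ptr-2 and ptc-1 differ little between groups.

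In the membrane set the 3 most abundant genes differed little, and the differences of the others ranged more widely. ptc-1 held 989 and 957, then 1054, 1103 and 1009, then 1145, 1105 and 1037 CPM; the A-labelled libraries did not overlap the controls, at a log2 difference of only 0.12 ± 0.06 (edgeR adjusted p = 0.260). ptr-2 held 450.2 and 422, then 423, 410.0 and 397, then 453, 420.3 and 418 CPM, with overlapping groups and a log2 difference of -0.09 ± 0.06 (adjusted p = 0.350). ptc-2 held 80.5 and 74.7, then 81.9, 86.8 and 74.2, then 83.2, 83.4 and 76.4 CPM and overlapped in every comparison. Without these 3 genes, the other 23 membrane members summed to 197 and 169.7 CPM in control, 235, 298 and 281 CPM in the A-labelled and 203, 197 and 191 CPM in the C-labelled libraries, so the A-labelled libraries lay above all others. The secreted set summed to 84.5 and 69.5, then 109.5, 256 and 206, then 70.8, 87.6 and 66.6 CPM, and here too every A-labelled library lay above all others.

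Of the 21 tested ptr genes, 20 had a higher mean in the A-labelled group, with a median log2 difference of 0.61. ptr-18, known to restrain a Ground-like protein in larvae, held 1.56 and 1.36, then 2.79, 13.5 and 8.34, then 1.49, 1.71 and 1.33 CPM. ptr-4, known for its part in the precuticle and chosen after its values were seen, held 2.55 and 2.26, then 3.91, 18.1 and 14.1, then 0.894, 2.41 and 1.70 CPM. The 2 genes shared the profile of the Warthog genes, with A-labelled libraries 2 and 3 highest, library 1 next and no overlap with control. Their log2 differences were 2.48 ± 0.61 and 2.32 ± 0.69 (edgeR adjusted p = 0.121 and 0.124).

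A second kind of profile was flatter, with all 3 A-labelled libraries at a similar height. ptr-12 held 2.79 and 1.99, then 3.97, 4.21 and 3.81, then 2.27, 2.25 and 2.42 CPM. ptr-23 held 18.2 and 13.1, then 23.02, 23.7 and 24.3, then 19.1, 15.96 and 19.2 CPM. In both, the 3 A-labelled libraries lay within a narrow band above every other library. ptr-23 had the smallest unadjusted p of the membrane set, 0.00314, at a log2 difference of 0.60 ± 0.15, and ptr-12 had 0.73 ± 0.19 (adjusted p = 0.121 for both). ptc-3, a Patched gene needed in epithelia, lay between these profiles at 35.7 and 29.3, then 39.4, 50.4 and 54.7, then 34.0, 31.8 and 30.6 CPM, again with no overlap (log2 0.57 ± 0.14, adjusted p = 0.121). ptr-6 held 2.23 and 1.69, then 3.34, 6.45 and 4.14, then 2.89, 3.19 and 2.16 CPM, at a log2 difference from control of 1.23 ± 0.32 (adjusted p = 0.121).

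Groups that did not overlap at all were seen for 22 secreted members higher and 2 lower and for 15 membrane members higher, beside 21.5% of all genes higher and 22.2% lower. By library, in A-labelled libraries 1, 2 and 3 the median secreted member exceeded the control mean by 0.52, 1.70 and 1.23 log2 units, and the median membrane member 0.44, 0.63 and 0.61. The controls themselves lay 0.16 and 0.12 on either side of their mean. Of the 38 secreted members, 24, 29 and 31 exceeded both controls in these libraries, and of the 24 membrane members 20, 21 and 19, beside 36.5, 46.4 and 38.7% of all genes tested. The 26 members more than 2-fold higher were picked by the A-labelled and control libraries themselves. Among them grd-2, grd-12, wrt-8 and wrt-9 also passed the filter through A-labelled libraries. The counts that follow only describe the 26 members, and no share over all genes was taken. Among these 26, A-labelled library 1 lay below libraries 2 and 3 in 26 of 26 but above both controls in 22. Their median in library 1 was 0.68 against 2.83 and 2.35 in libraries 2 and 3. The 4 exceptions, which are named here after their values were seen, were grd-1, grd-2, wrt-8 and ptr-19.

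**Figure D3:**
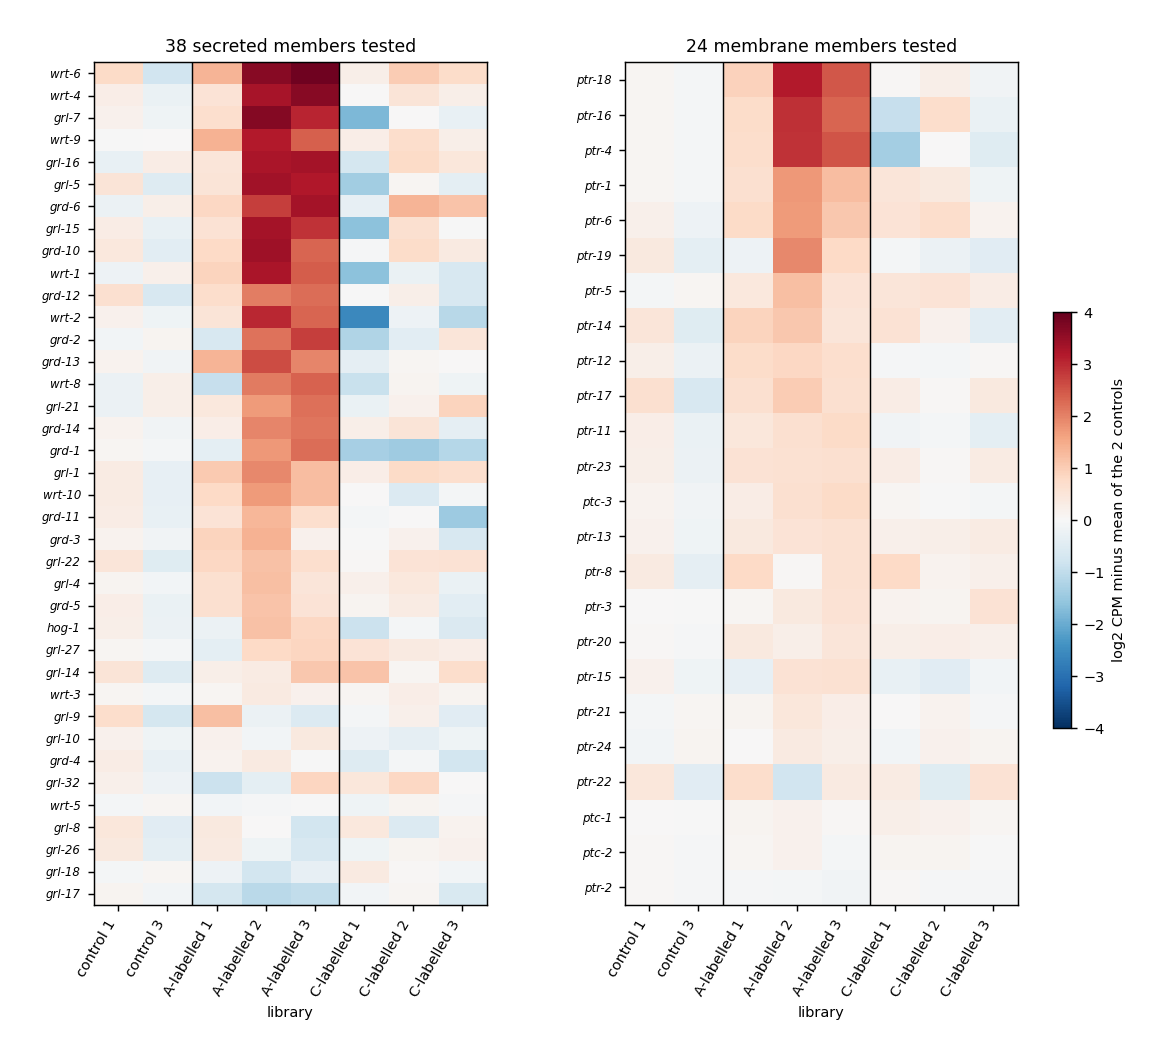
Log2 CPM of each tested member minus the mean of the 2 controls, by library (columns) for 38 secreted and 24 membrane members ordered by their A-labelled difference; red is higher, blue lower, on a symmetric colour scale. A-labelled libraries 2 and 3 are darkest over the upper part of both panels, library 1 is paler in the same direction, and the C-labelled libraries are near the controls, with C-labelled library 1 bluest at wrt-2.

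Without A-labelled library 1, edgeR called 25 members higher than control and none lower, beside 6.47% of genes higher and 2.38% lower. It then called 26 members higher than in the C-labelled libraries and none lower, beside 4.76% of genes higher and 0.319% lower. With A-labelled library 1 alone in its group, an alternative added once the data were known, the median difference was 0.51 in the secreted and 0.45 in the membrane set, and no member was called; that fit assumes that the lone library varies like those of the other groups.

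For the C-labelled libraries the members lay near the controls. The log2 difference was above 0 for 17 of 38 secreted and 17 of 24 membrane members, beside 46.5% of all genes, with medians of -0.04 and 0.07. edgeR called 0 members, beside 0.0948% of genes, and DESeq2 called 0 members, beside 0.697% of genes higher and 0.223% lower. At an unadjusted p below 0.05 there was no secreted member and 1 membrane member higher, beside 4.32% of genes higher and 3.02% lower. No member was more than 2-fold higher, beside 2.28% of genes, and 2 secreted members, grd-1 and wrt-2 (the latter named after its values were seen), were more than 2-fold lower, beside 1.02% of genes. wrt-2 overlaps pccb-1 by 43 bases, with 631 counts against 94319, so its reads are uncertain. The groups did not overlap for 2 secreted members higher and 4 lower and for 5 membrane members higher, beside 12.7% of genes higher and 15.5% lower.

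The membrane member with that p was ptc-1, whose 3 C-labelled libraries all exceeded both controls, by a log2 difference of 0.17 ± 0.06 (unadjusted p = 0.0229, edgeR adjusted p = 0.587). ptr-13 held 15.9 and 12.4 CPM in control, 18.2, 20.6 and 21.3 CPM in the A-labelled and 16.1, 16.4 and 17.8 CPM in the C-labelled libraries, and ptr-20 held 6.95 and 6.37, then 8.78, 7.80 and 9.29, then 7.90, 8.02 and 7.72 CPM. In both genes each RNAi library exceeded both controls. The log2 differences of the C-labelled group were 0.25 ± 0.13 and 0.24 ± 0.13 (adjusted p = 0.752 for both), and ptr-5 had 0.45 ± 0.26 (adjusted p = 0.771). On the secreted side grd-1 held 0.886 and 0.797, then 0.633, 2.90 and 4.14, then 0.298, 0.281 and 0.346 CPM. Its C-labelled libraries lay below all others, while the A-labelled libraries lay on both sides of the controls. The C-labelled difference was -1.44 ± 0.72 (adjusted p = 0.741). grl-10 differed by -0.26 ± 0.20, grd-4 by -0.46 ± 0.27 and grl-1 by 0.62 ± 0.45, none past the threshold (adjusted p = 0.818, 0.771 and 0.816). grl-10 overlaps the ribosomal protein gene rpl-39 by 18 bases, with 1049 counts against 110399, so its reads are uncertain. The same holds for grl-1, which overlaps hir-1 by 22 bases, with 149 counts against 3558.

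The libraries of the C-labelled group were not alike for the 26 members that were more than 2-fold higher in the A-labelled group. Their medians were -0.30, 0.23 and -0.11 log2 units from the control mean in C-labelled libraries 1, 2 and 3. C-labelled library 1 was the lowest of all 8 libraries in 12 of the 26, a count for which no share over all genes was taken. The 26 were picked as high in the A-labelled group, so that count largely sets library 1 against the controls and the other C-labelled libraries. By a different measure, which is no share for that count, 5991, 5502 and 5049 of all 14772 genes tested lay below both controls in C-labelled libraries 1, 2 and 3. Both comparisons share the controls, so their values are given side by side only.

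**Figure D4:**
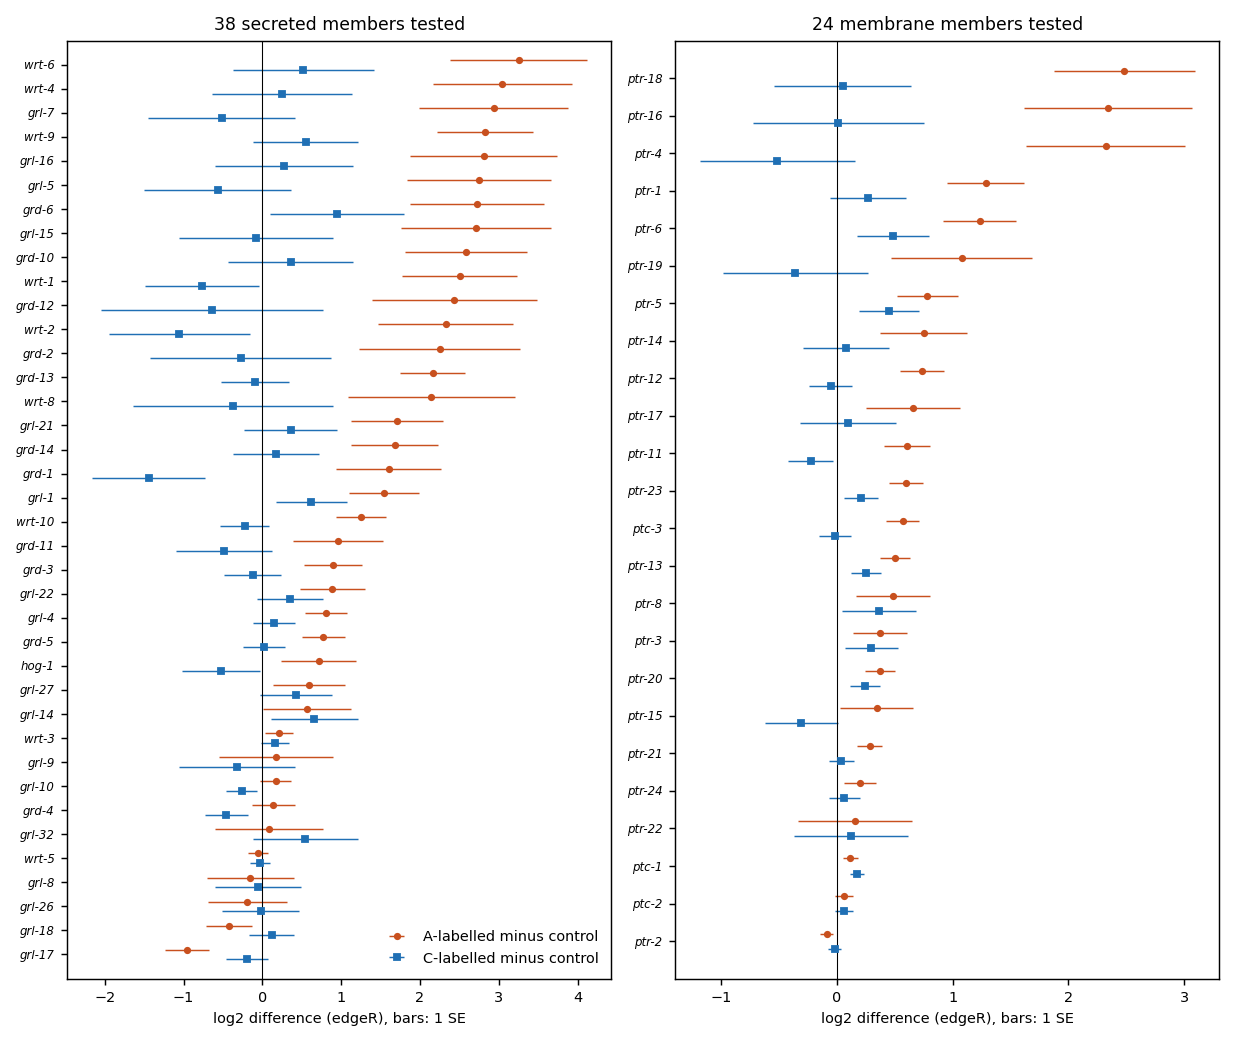
Log2 difference from control with its standard error (edgeR) for 38 secreted and 24 membrane members, A-labelled in orange and C-labelled in blue. The A-labelled values run up to 3.25 for wrt-6 and 2.48 for ptr-18 and fall to -0.96 for grl-17, while the C-labelled values lie between -1.44 (grd-1) and 0.95 (grd-6).

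Set directly against each other, A-labelled libraries were above C-labelled ones for 31 of 38 secreted and 21 of 24 membrane members, beside 54% of all genes, with median log2 differences of 1.40 and 0.48 (0.02 over all genes). 22 secreted and 5 membrane members were more than 2-fold higher in the A-labelled group, beside 7.82% of genes, and groups did not overlap for 19 secreted members higher and 2 lower and 11 membrane members higher, beside 12.7% of genes higher and 11.2% lower. edgeR called 0 members, beside 0.0406% of genes. The unadjusted p was below 0.05 for 27 secreted members higher and 1 lower and for 12 membrane members higher, beside 11.6% of genes higher and 7.59% lower. DESeq2 called 16 secreted and 7 membrane members higher, beside 3.78% of genes higher and 0.711% lower. Deviations from the group mean correlated at 0.61, 0.43 and 0.22 between A-labelled and C-labelled libraries numbered 1, 2 and 3. A-labelled library 3, however, correlated more with C-labelled library 2 (0.30). With the replicate number as a block edgeR called 24 members, all higher in the A-labelled group, beside 7.67% of genes higher and 3.85% lower. Since the pairing was read from these data alone, the blocked p-values may be too favourable.

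The largest unblocked difference in this contrast among the genes with the smallest p was that of grd-1, 3.05 ± 0.64 on the log2 scale, with edgeR adjusted p = 0.137 without and 0.0442 with the block. grd-13 differed by 2.25 ± 0.35 (adjusted p = 0.137, blocked 0.0035), wrt-9 by 2.27 ± 0.49 (0.137, blocked 0.00943) and wrt-10 by 1.48 ± 0.28 (0.137, with no call under the block). In grd-1, grd-13, wrt-9 and wrt-10 every A-labelled library exceeded every C-labelled one. wrt-1, neighbour of wrt-10, had a log2 difference of 3.27 ± 0.65 (adjusted p = 0.137, blocked 0.00112). In the membrane set ptr-11 held 6.82 and 4.65, then 7.74, 8.90 and 9.58, then 5.13, 5.30 and 4.29 CPM. Its A-labelled libraries lay above all others, and its log2 difference between the RNAi groups was 0.83 ± 0.17 (adjusted p = 0.137, blocked 0.0161). ptr-12 followed with 0.79 ± 0.17 (0.137, blocked 0.0196), ptc-3 with 0.58 ± 0.13 (0.137) and ptr-18 with 2.43 ± 0.52 (0.137). The last 2 were not called under the block.

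Genes that work beside these families were read from a list of 12, all tested. 9 had a higher mean in the A-labelled than in the control libraries, 3 of them by more than 2-fold, and edgeR called 0. qua-1, whose product joins a Hint domain to a different secreted domain, held 2.93 and 2.62, then 4.60, 25.6 and 20.6, then 0.745, 2.27 and 1.67 CPM. hhat-1, related to the acyltransferase that adds a lipid to Hedgehog, held 0.590 and 0.432, then 0.806, 3.80 and 2.93, then 0.209, 0.539 and 0.374 CPM. daf-6, a Patched-related gene of the glial channel, is listed under a name outside the rule. It held 0.564 and 0.365, then 0.806, 2.62 and 1.83, then 0.477, 0.586 and 0.374 CPM. In each of the 3 the A-labelled libraries lay above all others, with libraries 2 and 3 highest. The log2 differences from control were 2.60 ± 0.79, 2.27 ± 0.67 and 1.89 ± 0.51 (edgeR adjusted p = 0.128, 0.121 and 0.121). scp-1, related to the sterol sensor SCAP, went the other way, at 117 and 109.7 CPM in control and 99.1, 83.2 and 96.5 CPM in the A-labelled libraries (log2 -0.29 ± 0.08, adjusted p = 0.121). For the C-labelled group the smallest p belonged to lon-2, a glypican, at a log2 difference of -0.22 ± 0.09 (adjusted p = 0.641), and ncr-1, a relative of the cholesterol transporter NPC1, at 0.32 ± 0.13 (adjusted p = 0.633). Neither direction was particular to that group. In the A-labelled libraries lon-2 differed from control by -0.30 ± 0.09 (edgeR adjusted p = 0.122) and ncr-1 by 0.17 ± 0.13 (adjusted p = 0.434).

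Marker lists of the tissues in a whole worm moved by library along with the members. In A-labelled libraries 1, 2 and 3, the median of 12 epidermal genes lay 0.39, 1.54 and 0.64 log2 units above the control mean, that of 14 moulting genes 0.45, 1.46 and 1.19, and that of 121 numbered collagens 0.50, 2.42 and 2.54. The epidermal list was mixed, with log2 differences from control between -0.28 (lin-26, the 1 gene below 0) and 4.62 (bli-1). Its collagens sqt-3, dpy-7, rol-6 and dpy-13 had 1.92, 2.45, 2.57 and 2.62. The regulators egl-18, elt-1 and elt-3 had 0.11, 0.27 and 0.36. These genes are named after their values were seen. Summed levels of the epidermal list were 359.8 to 363 CPM in control, 411 to 739 in A-labelled and 354 to 403 in C-labelled libraries, and those of the moulting list 214 to 249, 294 to 593 and 206 to 220.3 CPM. Pharynx (0.79, 2.57 and 1.81) and body wall muscle (0.68, 1.57 and 1.08) genes moved likewise, with pharynx sums of 31.02 to 53.0 CPM in control, 59.5 to 156 in A-labelled and 44.8 to 57.2 in C-labelled libraries. Muscle sums were 566 to 728, 1049 to 2060.3 and 676 to 977 CPM, and 2 of the 3 C-labelled libraries exceeded both controls. Glia (0.31, 0.61 and 0.35), neurons (0.22, 0.58 and 0.18) and intestine (-0.04, 0.53 and 0.18) moved less, and germline genes lay slightly below control (-0.10, -0.13 and -0.12). Sperm genes lay at -0.16, 2.18 and 3.04 in the A-labelled and at -0.37, 1.86 and 0.74 in the C-labelled libraries, and the median of 8 tested embryo genes lay 0.47 to 0.73 above the control mean in each of the 6 RNAi libraries. The part of these tissues in the members' differences was not tested. All markers in the table except the collagen col-185 had counts.

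**Figure D5:**
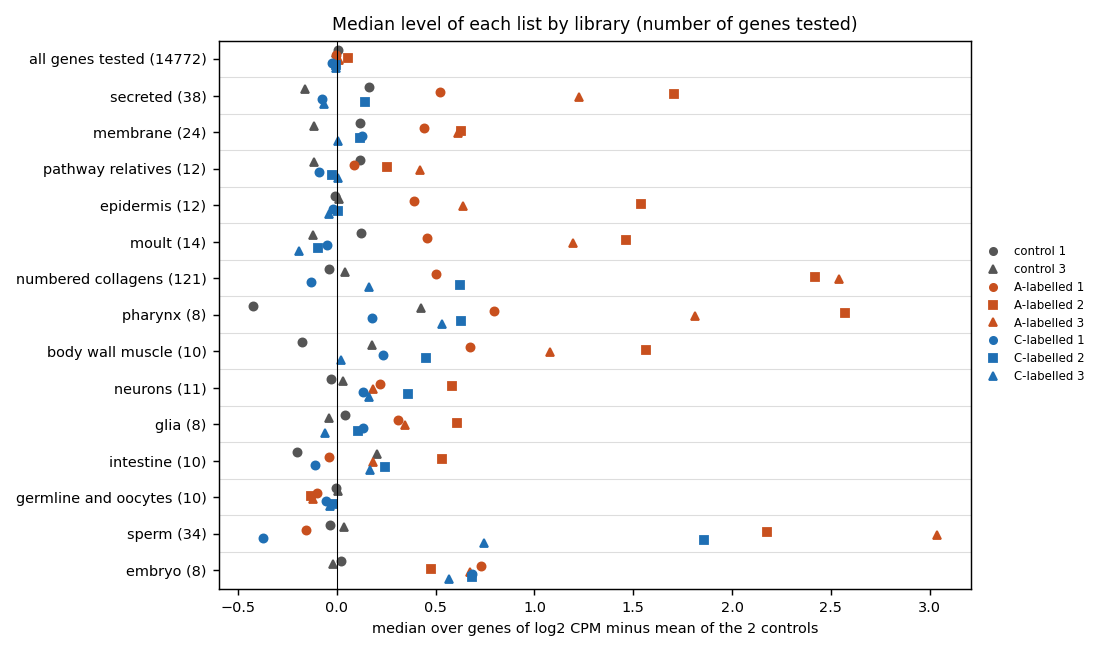
Median over the tested genes of each list (number of genes in brackets) of log2 CPM minus the mean of the 2 controls, by library. In the secreted set, collagens, moulting, pharynx and muscle lists A-labelled libraries 2 and 3 lie farthest to the right and A-labelled library 1 between them and the controls; in the sperm list A-labelled library 1 lies left of the controls and C-labelled library 2 lies at 1.86.

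Members also differed in how steady their CPM was over the 8 libraries. That spread holds differences between groups, differences between replicates of a group and counting noise together. The noise is larger for members with few counts. The coefficient of variation of CPM over the 8 libraries had a median of 61.5% in the secreted set (6.39 to 139%) and 30.1% in the membrane set (4.47 to 114%). By family its median was 125% for wrt, 93.0% for grd, 41.2% for grl, 30.8% for ptr and 6.15% for ptc. The steadiest member was ptr-2, followed by ptc-2, ptc-1 and wrt-5, and the most variable was grl-7.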

How the data were processed

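Per the labels' protocols, QIAzol was used to isolate RNA and the unstranded TruSeq RNA kit v2 to make libraries. The build WBcel235 and the tools TopHat2 2.1.0, featureCounts 1.5.0 and bcl2fastq 1.8.4 are named, per the submitters' processing notes; the annotation release and the treatment of multi-mapping reads are not stated in the labels or headers. The authors deposited whole-number counts per gene, which were tested, and RPKM values, which describe levels only. Their RPM table was not used.

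Genes passed edgeR's filter by group (minimum count 10, minimum total 15). Counts were scaled by TMM (0.957 to 1.02) and tested by the quasi-likelihood F test of edgeR 4.0.16 (R 4.3.3, robust fit), in 1 model of 3 groups over 8 libraries, two-sided, with Benjamini-Hochberg adjustment over 14772 genes and a threshold of 0.05. CPM uses scaled library sizes, and log2 CPM by library a prior count of 2. The SE of a log2 difference is its size over the square root of F. DESeq2 1.42.0 (no independent filtering), other size factors, no filter, a replicate block, 2 groups alone and libraries left out were alternatives. The fit was tested on simulated counts with 200 genes changed and the same spread for every gene. That test does not cover differences between replicates such as those of the A-labelled libraries.

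Replicates differed by more than sampling noise (chi-square per degree of freedom at least 17.6), so none was merged. Deviations of same-numbered A-labelled and C-labelled libraries correlated across genes at 0.61, 0.43 and 0.22; all exceed 0.1, so numbers were taken to pair them, although no label says so and A-labelled library 3 correlated more with C-labelled library 2 (0.30). For the controls, such correlations were 0.22 and 0.025 with A-labelled libraries 1 and 3, and 0.32 and 0.20 with C-labelled libraries 1 and 3. The controls were not taken as paired. Where the replicate block was used, however, it also joined control libraries 1 and 3 to the others by number.

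Members and lists were chosen with earlier results of these data known. Named were vab-3, the 2 members of each family with the highest RPKM, per comparison the 4 members of each set and the 2 relatives with the smallest p, and the 3 highest and 3 lowest A-labelled differences; others are said to be chosen after their values were seen. Gene coordinates are from the Ensembl annotation of WBcel235.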

Additional observations from a re-analysis of the deposited data

How the results depend on the processing

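Directions of the members' medians kept their sign under every alternative run for the A-labelled comparisons, while counts of calls did not keep their size. With DESeq2, 1012 genes (721 higher, 291 lower) and 24 members were called for A-labelled against control, 136 genes for C-labelled against control, and 663 genes and 23 members for A-labelled against C-labelled; vab-3 passed at a log2 difference of 1.12 (DESeq2 adjusted p = 0.0388). Without the filter on low counts edgeR called 8 genes for A-labelled against control, and 12 genes and 1 member (grd-13) between the RNAi groups. With the replicate block, the counts were 546 genes and 12 members, 102 genes and 0 members, and 1702 genes and 24 members. The block also joined control libraries 1 and 3 to the others by number, though no label pairs them. The 12 members are beside 2.56% of genes higher and 1.14% lower. With 2 groups fitted alone, 23 genes were called for C-labelled against control and 1 between the RNAi groups, and ptc-2 there turned to 0.0018. When A-labelled libraries 2 and 3 were removed together, the secreted and membrane medians were 0.51 and 0.45 against control and 0.45 and 0.29 against the C-labelled group; hog-1 turned to -0.28, grl-26 to 0.36 and, between the RNAi groups, ptc-2 to 0.020. The causes were not tested.

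Leaving out each library in turn gave 0 to 1303 genes and 0 to 25 members called for A-labelled against control, 1 to 15 genes for C-labelled against control, and 1 to 748 genes and 0 to 26 members between the RNAi groups; the highest counts were those without A-labelled library 1. The secreted median of A-labelled against control ran from 0.87 to 1.58, lowest without A-labelled library 2. The membrane median ran from 0.35 to 0.72 (A-labelled) and from -0.010 to 0.19 (C-labelled) against control, lowest and highest for A-labelled without control libraries 3 and 1, and the secreted one from -0.22 to 0.16 (C-labelled). Signs changed for grl-26 (-0.59 to 0.35) and wrt-5 (-0.13 to 0.0067) against control, and between the RNAi groups for wrt-5 (-0.10 to 0.029) and ptc-2 (-0.051 to 0.038). Other size factors moved the median of all genes by less than 0.1.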
